A study of Mus musculus with 12 samples.

Results

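The transcription factors that establish and keep T cell identity were followed in naive CD4 T cells of C57BL/6 mice before and after stimulation through the T cell receptor. The set was defined by name as the probe sets whose array annotation gives the symbol Tcf7, Lef1, Satb1, Bach2, Gata3, Runx1, Runx3, Zbtb7b, Bcl11b or Ets1. Of these 10 genes, 9 had a probe set of their own, 1 each, among 19938 genes measured in that way. Tcf7 had none and was not analysed here. The study set WT cells beside cells of mice that carry a PP2Ac transgene, which encodes the catalytic subunit of the phosphatase PP2A, and its title names activation as the setting of the comparison. Cells of each genotype were taken without stimulation (0 h) or after 6 h or 24 h on plates coated with goat anti-hamster antibody, with soluble anti-CD3 at 0.25 ug/mL and anti-CD28 at 0.5 ug/mL. Each of these 6 groups had 2 one-colour arrays of total RNA, 12 in all, of which 1 per group carries the mark Rep in its title and the other is called unmarked. The source labels call the control animals WT transgenic mice and their titles call them WT. The promoter of the transgene, the age of the mice, and whether the arrays of a group came from separate mice or cultures are not given in the sources used here, so the p-values reflect only how far these samples vary, which may be technical.

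As background, T cell precursors become committed to the lineage under TCF1 (encoded by Tcf7), GATA3 and BCL11B, and RUNX and ETS proteins bind beside them at many T cell enhancers. ThPOK, encoded by Zbtb7b, and RUNX3 oppose each other when thymocytes choose between the CD4 and CD8 fates. In mature naive cells LEF1, BACH2 and SATB1 take part in keeping the resting programme, and GATA3 directs T helper 2 differentiation after activation.

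The 3 WT arrays marked Rep stood apart from the rest in neutrophil and monocyte markers, and the WT results are given without them at the end. All values are log2 intensities after quantile normalisation between arrays. The array medians as deposited ran from 7.391 to 7.501, a range of 0.11. The normalised values had a lower quartile of 5.807 and an upper quartile of 10.162, and the lowest value of any of the 9 factors on any array was 10.20. All 9 factors were thus above the upper quartile on each of the 12 arrays. Replicate arrays correlated across probe sets with r from 0.992 to 0.997. Ppp2ca, the gene of the transgene product, had group means at 0, 6 and 24 h of 13.15, 13.36 and 13.21 in WT and 13.89, 13.75 and 13.81 in transgenic cells. Its difference averaged over the times was 0.57 ± 0.05 (SE; limma adjusted p = 0.0044), and transgenic arrays lay above the WT arrays at every time. At the single times it was not called. The differences were 0.737 at 0 h (limma adjusted p = 0.055), 0.385 at 6 h and 0.602 at 24 h (limma adjusted p = 0.28). The mean of 9 T cell markers lay between 12.76 and 13.16 on all arrays.

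Promoter sequences are shown for Lef1, Runx1 and Bcl11b, which were among the factors that fell at 6 h, and for Gata3, which rose by 24 h. Each is the 250 bases just before the gene's most upstream start in the RefSeq promoter table, on the gene's strand and 5′ to 3′, from RefSeq on GRCm38.p6. They lie at chr3:131110047-131110296 on the plus strand for Lef1, chr16:92826075-92826324 on the minus strand for Runx1, chr12:108003415-108003664 on the minus strand for Bcl11b and chr2:9878601-9878850 on the minus strand for Gata3. Capitals mark any match, on either strand, to a core motif of the factors' own families: CTTTGA for TCF and LEF, TGTGGT for RUNX, CCGGAA for ETS and AGATAA for GATA.
Lef1: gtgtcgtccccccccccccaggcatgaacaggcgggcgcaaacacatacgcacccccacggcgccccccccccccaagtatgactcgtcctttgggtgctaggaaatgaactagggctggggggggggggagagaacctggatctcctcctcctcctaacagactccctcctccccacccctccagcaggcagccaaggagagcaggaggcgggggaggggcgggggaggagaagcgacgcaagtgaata
Runx1: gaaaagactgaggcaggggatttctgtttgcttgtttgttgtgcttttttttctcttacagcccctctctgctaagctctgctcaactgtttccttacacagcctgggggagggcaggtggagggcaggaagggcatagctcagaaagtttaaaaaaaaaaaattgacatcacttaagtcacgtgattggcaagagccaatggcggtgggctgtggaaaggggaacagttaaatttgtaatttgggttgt
Bcl11b: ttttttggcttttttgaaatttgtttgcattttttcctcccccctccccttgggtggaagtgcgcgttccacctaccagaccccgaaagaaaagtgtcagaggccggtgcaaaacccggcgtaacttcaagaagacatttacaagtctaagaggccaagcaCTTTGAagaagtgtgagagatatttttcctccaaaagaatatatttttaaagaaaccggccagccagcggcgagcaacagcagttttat
Gata3: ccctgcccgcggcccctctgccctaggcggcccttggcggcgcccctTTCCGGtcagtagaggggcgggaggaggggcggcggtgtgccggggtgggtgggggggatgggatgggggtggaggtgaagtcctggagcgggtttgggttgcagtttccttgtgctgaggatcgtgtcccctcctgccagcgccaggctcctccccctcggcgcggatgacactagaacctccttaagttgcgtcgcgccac
The Bcl11b window held 1 TCF and LEF match, whose first base lies 89 bases before the start. The Gata3 window held 1 ETS match on the opposite strand, which begins 203 bases before the start. The Lef1 and Runx1 windows held no match, which says only that these letters are not in these windows. Ets1, which also fell at 6 h, had no promoter entry. Entries existed for the other 9 of the 10 genes, Tcf7 included, with 20 windows in all over their alternative starts. Of those 20 windows, 3 held the TCF and LEF letters, 2 the RUNX letters, 4 the ETS letters and 0 the GATA letters. Among 32851 windows of the same length from all genes, the shares were 13.8%, 14%, 12% and 9.99%. A match is a description of the sequence and not a bound site.

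After 6 h of stimulation, Lef1, Bcl11b, Runx1 and Ets1 fell in both genotypes, by 1.27-fold to 1.97-fold, and none of the 9 factors was called higher. In WT cells the 4 called falls stand beside a background of 13.9% of 23410 probe sets called lower and 12.6% called higher at a limma adjusted p under 0.05. In transgenic cells the same 4 genes were called, beside a background of 12.9% lower and 12.5% higher. Those shares include dim probe sets, whereas all 9 factors lay above the upper quartile. With the 40% dimmest probe sets left out, 6279 of those kept were called in WT and 6092 in transgenic cells, in either direction. Over all 23410 the counts were 6209 and 5935. The share called was thus higher among brighter probe sets, and 4 of 9 factors were still called in each genotype. The 4 calls are therefore not shown to exceed the share among probe sets of like brightness. Shares of all probe sets given below include the dim ones too. The median difference over the 9 factors at 6 h was -0.28 in WT and -0.24 in transgenic cells, against -0.01 and 0.00 over all probe sets tested.

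Lef1, an HMG box factor that partners beta-catenin and is close kin of TCF1, fell furthest. In WT cells the unmarked and Rep arrays read 13.68 and 13.75 at 0 h, 12.65 and 12.90 at 6 h, and 13.17 and 13.11 at 24 h. In transgenic cells they read 13.66 and 13.68, then 12.71 and 12.68, then 13.10 and 13.21. In each genotype the 6 h arrays were lowest, the 24 h arrays intermediate and the 0 h arrays highest, with no overlap between times. The 6 h difference was -0.94 ± 0.09 (SE) in WT (1.92-fold lower, adjusted p = 0.00012) and -0.98 ± 0.09 in transgenic cells (1.97-fold lower, adjusted p = 0.0001). At 24 h Lef1 was still 0.57 below its 0 h level in WT (difference -0.57, adjusted p = 0.0019), and in transgenic cells the difference was -0.52 (adjusted p = 0.0041). The rise from 6 h to 24 h was 0.36 ± 0.09 in WT (adjusted p = 0.034) and 0.46 ± 0.09 in transgenic cells (adjusted p = 0.012). The falls from 0 h were called with any 1 array left out, whereas the WT rise was called in 5 of 12 such fits. It was lost without either transgenic 0 h or 6 h array, either WT 24 h array (0.33 and 0.40) or the unmarked WT 6 h array (0.24), with adjusted p up to 0.17, and after median centring in place of quantile normalisation. The transgenic rise was lost without the Rep 24 h array (0.40) or the Rep 6 h array (0.45).

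Bcl11b, a zinc finger factor needed for T lineage commitment and its upkeep, was also lowest at 6 h. WT arrays read 12.02 and 12.11 at 0 h, 10.99 and 11.48 at 6 h, and 11.82 and 11.75 at 24 h. Transgenic arrays read 11.87 and 11.93, then 11.06 and 11.35, then 11.55 and 11.89. The 6 h arrays were below those of the other times in both genotypes, and in each the unmarked 6 h array was the lower one. The 6 h difference was -0.83 ± 0.17 in WT (1.78-fold lower, adjusted p = 0.0054) and -0.70 ± 0.17 in transgenic cells (1.62-fold lower, adjusted p = 0.014). The transgenic call was lost without either 0 h array (differences -0.73 and -0.67) or without the unmarked 6 h array (-0.56), with adjusted p up to 0.1. The later rises of 0.55 in WT and 0.51 in transgenic cells did not pass the test (adjusted p = 0.065 and 0.079). With the mark Rep as a block they did, at adjusted p = 0.021 and 0.026. At 24 h against 0 h Bcl11b differed by -0.28 in WT and -0.18 in transgenic cells, within the spread (adjusted p = 0.28 and 0.53).

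Runx1 encodes a runt domain factor that supports the survival of naive T cells. WT arrays read 11.78 and 11.67 at 0 h, 10.83 and 11.19 at 6 h, and 11.43 and 11.20 at 24 h. Transgenic arrays read 11.83 and 11.72, then 10.89 and 11.31, then 11.42 and 11.36. All 4 stimulated arrays of each genotype were below both 0 h arrays. The 6 h difference was -0.71 ± 0.16 in WT (1.64-fold lower, adjusted p = 0.0089) and -0.68 ± 0.16 in transgenic cells (1.60-fold lower, adjusted p = 0.012). Without the unmarked 6 h array the call was lost in each genotype, at differences of -0.53 in WT and -0.46 in transgenic cells. It was also lost without the unmarked 0 h array, at -0.66 and -0.62, and adjusted p reached 0.071 in WT and 0.089 in transgenic cells over all such fits. The 24 h differences of -0.41 and -0.39 against 0 h did not pass (adjusted p = 0.091 and 0.12).

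Ets1, the founding member of the ETS family and a factor of peripheral T cell upkeep, fell by a smaller amount with less spread. WT arrays read 13.55 and 13.61 at 0 h, 13.16 and 13.32 at 6 h, and 13.30 and 13.28 at 24 h. Transgenic arrays read 13.57 and 13.55, then 13.21 and 13.23, then 13.35 and 13.37. No stimulated array of either genotype reached its 0 h arrays. The 6 h difference was -0.34 ± 0.08 in both genotypes (1.27-fold lower, adjusted p = 0.0095 in WT and 0.0099 in transgenic cells). The WT call was lost without the Rep 0 h array (-0.31) or the unmarked 6 h array (-0.26). The transgenic call was lost without the unmarked 0 h array (-0.33) or the unmarked 6 h array (-0.33), and adjusted p in these fits reached 0.076 in WT and 0.057 in transgenic cells.

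**Figure D1:**
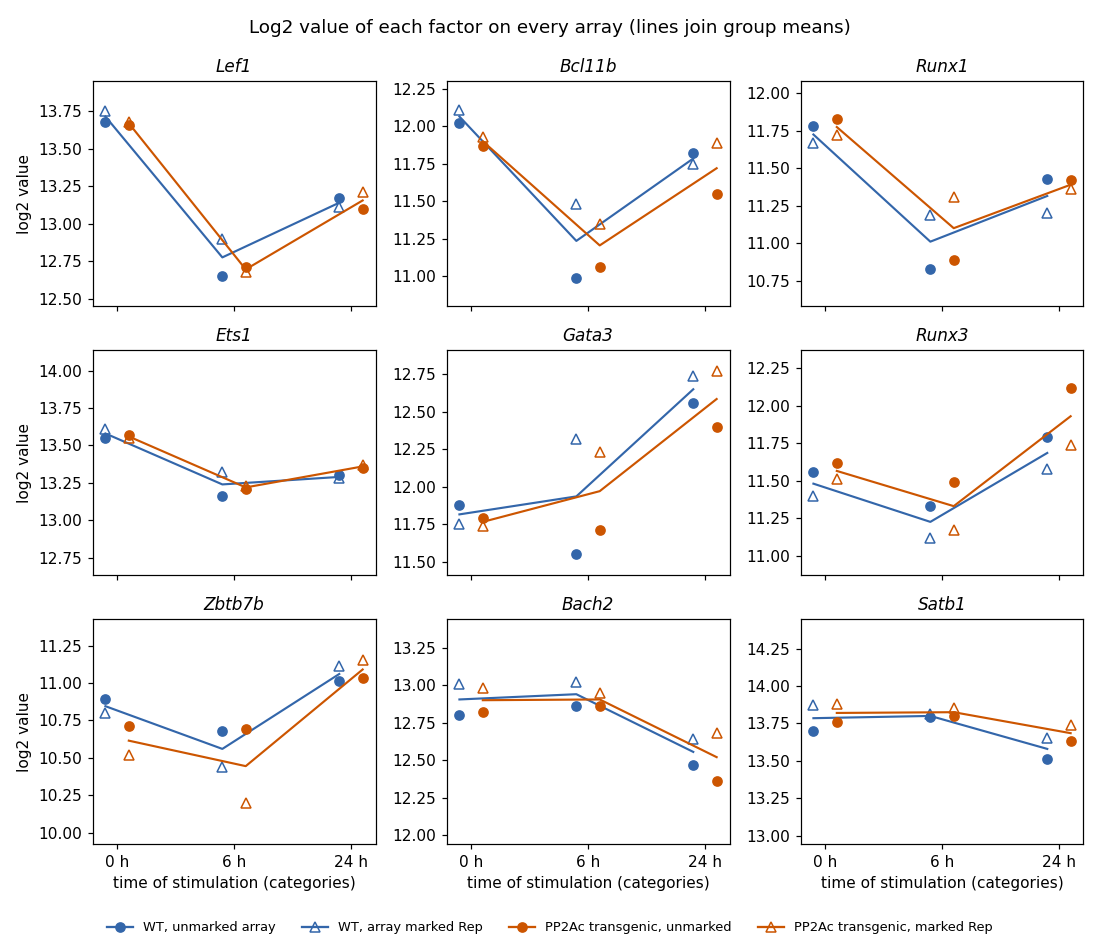
Log2 value (vertical axis, each panel spanning the same height) of each of the 9 factors on all 12 arrays against time of stimulation, drawn as 3 categories; circles are unmarked arrays, triangles arrays marked Rep, blue WT, orange PP2Ac transgenic, and lines join the means of 2 arrays. Lef1, Bcl11b, Runx1 and Ets1 dip at 6 h in both genotypes, Gata3 climbs to 24 h, and Bach2 and Satb1 are lowest at 24 h.

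At 24 h the calls among the factors went in both directions. Against 0 h, Gata3 was higher and Lef1 lower in both genotypes, and Ets1 passed the threshold in WT, at -0.29 ± 0.08 (adjusted p = 0.021). The Ets1 value in transgenic cells was -0.21 ± 0.08 (adjusted p = 0.091). Those calls number 1 higher and 2 lower of 9 in WT, beside 12.9% and 13.8% of all probe sets, and 1 higher and 1 lower in transgenic cells, beside 12% and 11.8%. With 9 factors, these counts are near those shares. The Ets1 call in WT was lost after median centring (-0.24) and without any 1 of the 4 WT arrays compared, at -0.32 to -0.26. The difference between the genotypes in the Ets1 response at 24 h was 0.09 ± 0.11 (adjusted p = 1).

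Gata3, which directs T helper 2 differentiation, was the factor called higher against 0 h in the fit without the block. With the block, Runx3 and Zbtb7b were called higher at 24 h in transgenic cells as well. WT arrays read 11.88 and 11.75 at 0 h, 11.55 and 12.32 at 6 h, and 12.56 and 12.74 at 24 h. Transgenic arrays read 11.79 and 11.74, then 11.71 and 12.23, then 12.40 and 12.77. The 24 h arrays were above all others of their genotype, while the 6 h arrays fell on both sides of the 0 h values, with the Rep array the higher one in each genotype. The 24 h difference was 0.84 ± 0.25 in WT (1.79-fold, adjusted p = 0.036) and 0.82 ± 0.25 in transgenic cells (1.77-fold, adjusted p = 0.043). Without any 1 of the 4 WT arrays compared, or either transgenic 0 h array, the WT call was lost, with differences from 0.75 to 0.93 and adjusted p up to 0.16. The transgenic call was lost without any 1 of the 0 h or 24 h arrays of either genotype, with differences from 0.64 to 1.01 and adjusted p up to 0.21. At 6 h the differences from 0 h were 0.12 and 0.20, below their standard error of 0.25.

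Runx3 and Zbtb7b, the opposed factors of the CD8 and CD4 fates, were lowest on average at 6 h and highest at 24 h. The calls from 6 h to 24 h were Lef1 alone in WT, 1 higher and 0 lower of 9, beside 7.49% of probe sets higher and 5.86% lower. In transgenic cells they were Lef1, Runx3 and Zbtb7b, 3 higher and 0 lower, beside 7.89% and 6.42%. The WT comparison gained Gata3, Runx3, Zbtb7b, Bcl11b and Bach2 with the mark Rep as a block, 6 calls in all.

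For Runx3, WT arrays read 11.56 and 11.40 at 0 h, 11.33 and 11.12 at 6 h, and 11.79 and 11.58 at 24 h. Transgenic arrays read 11.62 and 11.51, then 11.49 and 11.17, then 12.12 and 11.74. The unmarked array was the higher one in all 6 groups, and the 24 h arrays stood above every other array of their genotype. From 6 h to 24 h Runx3 rose by 0.60 ± 0.16 in transgenic cells (1.51-fold, adjusted p = 0.033), and the WT value was 0.46 ± 0.16 (adjusted p = 0.09). With the block the adjusted p was 0.0021 in transgenic and 0.0072 in WT cells. Against 0 h, the transgenic 24 h value of 0.36 had an adjusted p of 0.14, or 0.013 with the block, and the WT value of 0.20 one of 0.40, or 0.11 with the block. The mean of the 2 CD8 T cell markers, Cd8a and Cd8b1, was likewise higher on the unmarked array in all 6 groups and highest in each genotype on the unmarked 24 h array, and their part in the Runx3 values was not tested. The transgenic call was lost without either transgenic 0 h array, the unmarked 24 h array (0.41) or the Rep 6 h array (0.44), with adjusted p up to 0.23, and after median centring (0.55).

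For Zbtb7b, WT arrays read 10.89 and 10.80 at 0 h, 10.68 and 10.44 at 6 h, and 11.01 and 11.11 at 24 h. Transgenic arrays read 10.71 and 10.52, then 10.69 and 10.20, then 11.03 and 11.15. The 24 h arrays were highest in each genotype, and the transgenic 0 h and 6 h arrays overlapped. From 6 h to 24 h Zbtb7b rose by 0.64 ± 0.16 in transgenic cells (1.56-fold, adjusted p = 0.025), and the WT value was 0.50 ± 0.16 (adjusted p = 0.068; 0.042 with the block). The transgenic call was lost without either 24 h array (0.70 and 0.58) or without the Rep 6 h array (0.40), with adjusted p up to 0.14. Against 0 h, the transgenic 24 h value of 0.47 had an adjusted p of 0.057, or 0.036 with the block, and the WT value of 0.21 one of 0.38.

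Bach2 and Satb1 held their level for 6 h and were lowest at 24 h. Bach2 encodes a transcriptional repressor that restrains effector differentiation. WT arrays read 12.80 and 13.01 at 0 h, 12.86 and 13.02 at 6 h, and 12.47 and 12.64 at 24 h. Transgenic arrays read 12.82 and 12.98, then 12.86 and 12.95, then 12.36 and 12.68. Both 24 h arrays were below all earlier ones in each genotype, and the Rep array was the higher one in all 6 groups. The 24 h difference from 0 h was -0.35 ± 0.13 in WT and -0.38 ± 0.13 in transgenic cells, and neither passed the test (adjusted p = 0.078 and 0.066). With the block, which takes the difference between unmarked and Rep arrays out of the error, both did, at adjusted p = 0.0083 and 0.0067. The same held from 6 h to 24 h, with -0.39 in each genotype and block adjusted p of 0.01 and 0.0094. Trended and robust moderation without the block also called both 24 h differences from 0 h, at limma adjusted p = 0.047 in WT and 0.038 in transgenic cells. With the 40% dimmest probe sets left out, the transgenic one was called as well (limma adjusted p = 0.048). Without the Rep transgenic 24 h array the transgenic differences were called without the block too, at -0.54 from 0 h and -0.55 from 6 h.

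Satb1 encodes a chromatin organiser of thymocytes and T cells. WT arrays read 13.70 and 13.87 at 0 h, 13.79 and 13.81 at 6 h, and 13.51 and 13.65 at 24 h. Transgenic arrays read 13.76 and 13.88, then 13.80 and 13.85, then 13.63 and 13.74. The 24 h arrays were below the others of their genotype by small margins. The 24 h difference from 0 h was -0.21 ± 0.09 in WT and -0.14 ± 0.09 in transgenic cells, and neither passed with or without the block (adjusted p = 0.14 and 0.37 without it).

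**Figure D2:**
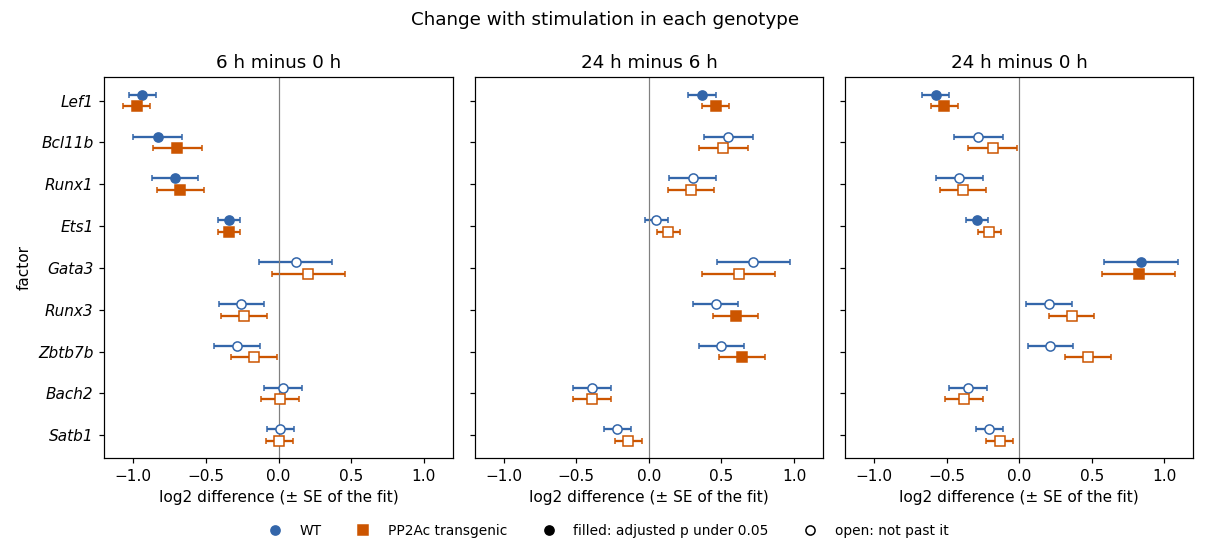
Log2 difference (horizontal axis) of the 9 factors from 0 h to 6 h, 6 h to 24 h and 0 h to 24 h, with bars of 1 SE of the fit; blue circles are WT, orange squares PP2Ac transgenic, and filled symbols have a limma adjusted p under 0.05. The Lef1 values of -0.94 and -0.98 at 6 h are the lowest and the Gata3 values of 0.84 and 0.82 at 24 h the highest. Only 1 genotype has a filled symbol for Ets1 from 0 h to 24 h and for Runx3 and Zbtb7b from 6 h to 24 h.

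No factor differed between the genotypes by the test. At 0, 6 and 24 h, 0 of 9 were called, beside 0.00854% of all probe sets at each time (2 of 23410), and averaged over the times 0 of 9, beside 0.0256%. Ppp2ca itself was not called at any single time without the block, and with it only at 0 h (limma adjusted p = 0.035). In limma's fit without the block none of the 9 had an unadjusted p under 0.05 in any genotype comparison. With the block none was called by the adjusted p, and unadjusted p-values of that fit are not given here. The widest estimates were those of Runx3 at 24 h, 0.25 higher in transgenic cells (95% interval -0.11 to 0.60 without the block), and of Zbtb7b at 0 h, -0.23 (95% interval -0.58 to 0.13). Runx3 was higher on the transgenic array in all 6 pairs of arrays of the same time and mark. At 24 h Cd8a was also higher on the transgenic array, by 1.179 in the unmarked and 0.313 in the Rep pair. Cd8b1 was higher there by 0.322 and 0.287. Both were higher at 6 h too, whereas at 0 h Cd8b1 was lower in both pairs and Cd8a in the Rep pair. Their part in the Runx3 difference was not tested. With the block the Runx3 difference was 0.25 ± 0.09 (SE) at 24 h (adjusted p = 0.77) and 0.15 ± 0.05 averaged over the times (adjusted p = 0.47). Lef1 was bounded more closely, with intervals of -0.25 to 0.17 at 0 h, -0.29 to 0.13 at 6 h and -0.20 to 0.23 at 24 h. For Gata3 they reached from -0.62 to 0.52 at 0 h, -0.53 to 0.60 at 6 h and -0.63 to 0.50 at 24 h, so changes of that size in either direction would lie within them. These intervals do not show that the genotypes are alike.

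The response to stimulation was tested for a difference between the genotypes as well. At 6 h and at 24 h, 0 of 9 factors were called, and the background was 0% of probe sets at both times, with 420 and 625 probe sets at an unadjusted p under 0.05 in limma's fit. The difference in response at 6 h was -0.04 ± 0.13 for Lef1 and 0.13 ± 0.24 for Bcl11b (adjusted p = 1 for both). At 24 h it was -0.02 ± 0.36 for Gata3 and 0.26 ± 0.22 for Zbtb7b (adjusted p = 1 for both). Whether the change of Runx3 and Zbtb7b from 6 h to 24 h, called in transgenic cells, differed from that in WT was not tested.

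**Figure D3:**
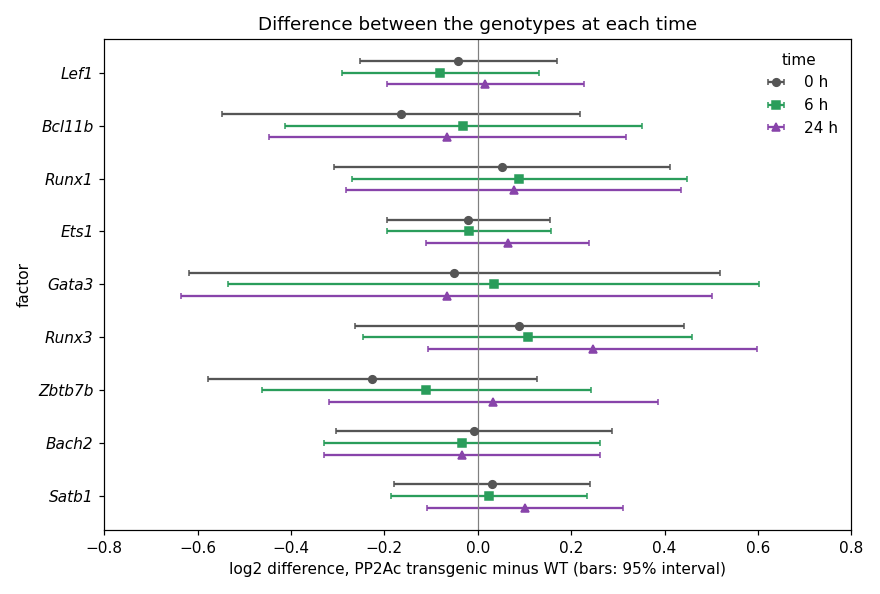
Log2 difference (horizontal axis) of PP2Ac transgenic minus WT cells for the 9 factors at 0 h (grey circles), 6 h (green squares) and 24 h (purple triangles), with bars of the 95% interval of the fit. Every interval spans 0, and Gata3 has the widest and Ets1 the narrowest.

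Other genes share these courses. Likeness was measured as the root mean square difference of log2 values over the 12 arrays, with each probe set centred on its own mean, among 20361 probe sets of 1 named gene, for the factors called against 0 h in both genotypes. The nearest profiles to Lef1 were Ccm2 at 0.054 and Lrba at 0.057, against a median of 0.426 over all. Runx1 was followed most closely by Stat4, the signal transducer of interleukin 12, at 0.079, and by Ctps2, a CTP synthase, at 0.084. Bcl11b was nearest to Faah, a fatty acid amide hydrolase, at 0.065 and to Elovl5, a fatty acid elongase, at 0.095. Ets1 was nearest to Pdpk1, the kinase PDK1, at 0.030 and to Dnajc14 at 0.036. Gata3 was nearest to Bcl2, the survival factor, at 0.083, whereas the next gene, Lpp, was at 0.18. The small values for Ets1 go with its small range, since the median over all genes was 0.219 for it and 0.458 for Gata3. Among the factors themselves, Lef1 lay 0.16 from Bcl11b and 0.17 from Runx1, Bach2 lay 0.12 from Satb1, and Runx3 lay 0.18 from Zbtb7b. Ets1 lay as near to Satb1, at 0.16, although their values correlated with r of only 0.22 (0.91 for Lef1 and Bcl11b), and both vary little. These distances are descriptions over 12 arrays normalised together.

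Relatives and partners of the factors moved in both directions. Of 26 probe sets for 25 measured genes of this list, 4 rose and 8 fell at 6 h in each genotype, with a list median of -0.01 in WT and 0.06 in transgenic cells. Over all probe sets these medians were -0.01 and 0.00. The counts of this and the following lists at 6 h stand beside 12.6% of all probe sets called higher and 13.9% called lower in WT, and 12.5% and 12.9% in transgenic cells. At 24 h against 0 h these shares were 12.9% and 13.8% in WT and 12% and 11.8% in transgenic cells, with medians of -0.02 and -0.01. Bach1, the close relative of Bach2, fell by 6 h with a difference of -1.11 ± 0.11 in WT and -1.05 ± 0.11 in transgenic cells, at a time when Bach2 itself was level. The ETS family members Fli1 (-0.76 in WT, -0.69 in transgenic cells), Elf1 (-0.69 and -0.62), Elf2 (-0.55 and -0.55) and Elf4 (-0.50 and -0.51) fell at 6 h, as Ets1 did. Elf4 was dim, with 0 h means of 6.07 in WT and 6.18 in transgenic cells, near the lower quartile of 5.807. Etv6, an ETS repressor, instead rose by 1.17 in WT and 1.09 in transgenic cells. Zfpm1, which encodes FOG1, a cofactor of GATA proteins, rose by 0.61 and 0.60 at 6 h and was 0.94 and 0.83 above 0 h at 24 h. Of the Groucho corepressors that bind TCF and LEF proteins, Tle4 fell at 6 h (-0.75 and -0.73) and Tle1 rose (0.60 and 0.78).

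Of 26 probe sets for 24 other factors of T cell development, 5 rose and 5 fell at 6 h in WT, and 2 rose and 5 fell in transgenic cells, with list medians of -0.11 and -0.05. These counts lie near the background shares. Gfi1, a transcriptional repressor of T cell development, rose by 1.90 ± 0.12 in WT and 1.58 ± 0.12 in transgenic cells at 6 h. Zeb1, a zinc finger repressor, fell with differences of -1.30 and -1.23 at 6 h and -1.48 and -1.43 at 24 h. Hhex was lower by 6 h in both genotypes (-1.01 and -0.90). Tox2, an HMG box factor, rose by 0.76 in WT and 1.08 in transgenic cells at 6 h. Id3, an inhibitor of E proteins, was 1.48 above 0 h at 24 h in WT and 1.01 in transgenic cells.

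Among 9 measured genes of naive T cells, 1 rose and 5 fell against 0 h at both times and in both genotypes, with list medians at 6 h of -0.65 in WT and -0.59 in transgenic cells. Il7r, the interleukin 7 receptor and a RUNX1-dependent gene in T cells, differed by -2.93 ± 0.35 at 6 h in WT and -3.19 ± 0.35 in transgenic cells. S1pr1, the receptor for exit from lymph nodes, differed by -1.32 in both. Igfbp4 was the exception, at 3.25 ± 0.23 above 0 h in WT and 3.63 ± 0.23 in transgenic cells at 24 h.

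Of 8 measured genes known to be restrained by BACH2, 4 rose and 2 fell at 6 h, and 4 rose and 1 fell at 24 h, in each genotype, with list medians at 6 h of 0.21 in WT and 0.39 in transgenic cells. Ccr4, a chemokine receptor of helper cells, rose by 2.59 ± 0.22 in WT and 1.75 ± 0.22 in transgenic cells at 6 h, when the Bach2 differences were 0.03 and 0.01. The arrays measure RNA only, and a link of Bach2 to the genes of this list was not tested. Gzmb, the cytotoxic protease granzyme B, rose by 2.06 and 2.39 at 6 h. Klrg1, a receptor of terminally differentiated cells, fell instead, with differences of -1.77 and -1.43 at 24 h.

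Of 5 measured genes known to depend on GATA3 in T helper 2 cells, 3 were called higher at both times in WT. In transgenic cells 4 were called higher at 6 h and 3 at 24 h, and none was called lower in either genotype. The list medians at 6 h were 0.90 and 0.86. Ccr8, a chemokine receptor of T helper 2 cells, rose by 3.45 ± 0.40 and 3.20 ± 0.40 at 6 h, while Gata3 had not passed the test. A link of Gata3 to the genes of this list was not tested either. Il4 rose by 0.90 and 0.87 at 6 h and stood 1.27 and 0.97 above 0 h at 24 h. Il13, which with Il4 also belongs to the BACH2 list, was 1.08 and 1.33 above 0 h at 24 h.

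Of 14 measured genes of the T cell receptor and its signalling, 3 rose and 5 fell at 6 h in WT, and 4 rose and 3 fell in transgenic cells, with list medians of -0.07 and -0.18. Cd3d fell (-0.52 and -0.55) and the kinase gene Zap70 rose (0.83 and 0.81). Of the 3 lineage genes Cd4, Cd8a and Cd8b1, 1 was called lower and 0 higher at 6 h in each genotype. Their medians were -0.29 in WT and -0.02 in transgenic cells. At 24 h, 1 was called higher in transgenic cells and 0 in WT. Cd4, which ThPOK keeps active by opposing its silencing, fell at 6 h by a difference of -0.38 ± 0.11 in WT (adjusted p = 0.033) and -0.58 ± 0.11 in transgenic cells (adjusted p = 0.0043). Cd8a was 1.88 ± 0.55 higher at 24 h than at 0 h in transgenic cells (adjusted p = 0.035; 0.0021 with the block), and the WT value was 1.39 ± 0.55 (adjusted p = 0.096; 0.008 with the block). In the genotype comparisons and the differences in response, no probe set of these 7 lists, which hold 86 measured genes, was called.

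Marker genes of other cell types were measured on the same arrays. None of the 56 markers of 9 cell types lay below the lower quartile on all 12 arrays. The mean of 10 neutrophil markers was 12.31, 11.47 and 11.15 on the unmarked WT arrays at 0, 6 and 24 h and 8.77, 8.40 and 7.57 on the WT arrays marked Rep. On transgenic arrays it was 12.26 and 11.28 at 0 h, 11.26 and 10.51 at 6 h, and 10.46 and 9.78 at 24 h. On the WT arrays marked Rep the 8 monocyte markers were lower too, at 8.27 to 9.02 against 9.86 to 10.60 on all other arrays. Without these 3 arrays, where each WT group is 1 array assumed to vary like the rest, WT cells at 6 h had Lef1 at -1.03 (adjusted p = 0.0026), Bcl11b at -1.03 (0.016), Runx1 at -0.94 (0.021) and Ets1 at -0.40 (0.063). Gata3 at 24 h was then 0.69 (adjusted p = 0.17), Lef1 -0.51 (0.047) and Ets1 -0.26 (0.23), and Lef1 from 6 h to 24 h was 0.52 (0.063). The genotype differences without them ran up to 0.42 for Gata3 at 6 h. They set the mean of the unmarked and Rep transgenic arrays against the unmarked WT array alone, so the mark is mixed with genotype. Between arrays of the same mark, the Gata3 difference at 6 h was 0.16 for unmarked and -0.09 for Rep arrays.

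B cell markers were lowest at 6 h, as Lef1, Bcl11b and Runx1 were. Their mean over 7 genes was 10.43 to 10.74 on 0 h arrays, 9.09 to 9.79 on 6 h arrays and 10.13 to 10.89 on 24 h arrays. The fall was uneven, as all 7 had lower means at 6 h than at 0 h but 4 were called in each genotype. In WT, Cd79a went from 12.2 to 10.53 and Pax5 only from 9.7 to 9.42. The 2 CD8 T cell markers averaged 9.09 to 9.63 at 0 h, 9.05 to 10.23 at 6 h and 9.88 to 11.02 at 24 h. The part of these cells in the factors' differences was not tested. In RNA from bulk cells, fewer cells of a type and less RNA per cell cannot be told apart. The mean of 4 regulatory T cell markers was 10.24 to 10.95 on 0 h arrays, 11.19 to 11.36 on 6 h arrays and 10.92 to 11.28 on 24 h arrays. That mean joins genes that moved in opposite directions. From 0 h to 24 h, Foxp3 went from 10.64 to 9.81 in WT and from 10.7 to 10 in transgenic cells. Ikzf2 fell as well. Il2ra went from 10.46 to 13.54 in WT and from 10.68 to 13.54 in transgenic cells, and Ctla4 also rose. The highest mean of dendritic cell, erythroid or NK cell markers on any array was 8.56.

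**Figure D4:**
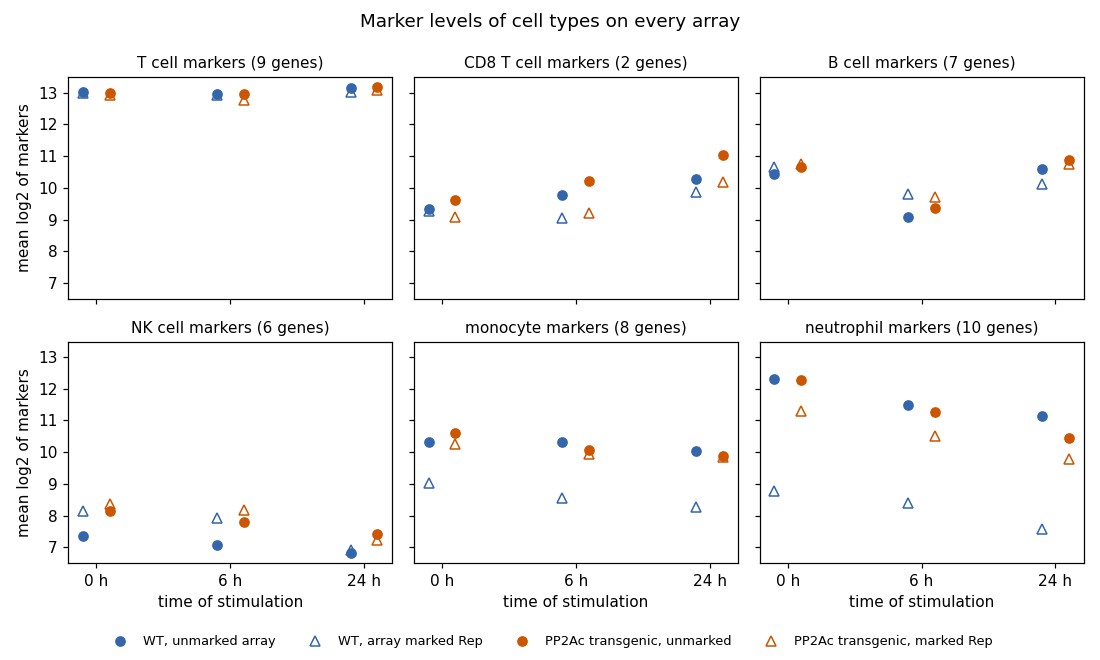
Mean log2 level (vertical axis) of the marker genes of 6 cell types on all 12 arrays against time of stimulation; circles are unmarked arrays, triangles arrays marked Rep, blue WT and orange PP2Ac transgenic. T cell markers stay between 12.76 and 13.16, B cell markers dip at 6 h, and the 3 WT arrays marked Rep have neutrophil markers of 7.57 to 8.77 where the other arrays have 9.78 to 12.31.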

How the data were processed

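The authors deposited log2 values, 1 for each probe set on each array; how they were summarised and normalised was not given in the sources used here. Of 28853 probe sets, 21789 had 1 gene symbol in the array annotation, 1621 several and 5443 none, and the 23410 with at least 1 were tested. Values were quantile normalised between arrays. Tests used limma 3.58.1 in R 4.3.3, with 1 fit of 6 group means over all 12 arrays (residual degrees of freedom 6, prior 3.05). P-values were adjusted by Benjamini-Hochberg over all 23410 probe sets within each of 12 comparisons. Scripts were tested on simulated data. The mark Rep was taken to pair arrays across groups, since the deviations of same-marked arrays from their group means correlated in 15 of 15 pairs of groups, with r from 0.138 to 0.591; the block fit adds this mark. The factors, the 7 gene lists and the marker lists were chosen with earlier results of these data known. Named genes were the 9 factors, Ppp2ca, the 2 nearest profiles of each factor called against 0 h in both genotypes and, of each list, up to 3 genes of smallest p and those making up a count of 5 or fewer; others, such as Elf2, Elf4 and Tle4, were chosen after their values were seen. Plots were made with Python 3.11.15 and matplotlib 3.10.9. Single probe sets cannot separate isoforms, and 2 arrays per group limit the precision.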

Additional observations from a re-analysis of the deposited data

How the results depend on the processing

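No difference of the 9 factors that was called changed sign under any alternative. The counts of factors called depended on the settings as follows. From 0 h to 6 h, 4 were called in each genotype, and 2 to 4 in WT and 1 to 4 in transgenic cells with 1 array left out. From 0 h to 24 h, WT had 3 calls, 1 to 3 with 1 array left out and 1 without the WT arrays marked Rep. Transgenic cells had 2 calls, 1 to 3 with 1 array left out, 5 with the mark as replicate block, and 4 each without the 40% dimmest probe sets, with trended and robust moderation, and with the compared groups fitted alone. From 6 h to 24 h, WT had 1 call, 0 to 3 with 1 array left out, 6 with the block, 2 without the dimmest probe sets, 2 with trended and robust moderation, and 0 with median centring, without the WT arrays marked Rep or with the compared groups alone. Transgenic cells had 3 calls, 0 to 4 with 1 array left out, 5 with the block and 1 with the compared groups alone. In WT from 0 h to 24 h, 4 were called with the block and 4 with trended and robust moderation. There, 2 were called with median centring and 2 with the compared groups alone. The cause of these changes was not tested. Where an array was left out, the lone array of its group was assumed to vary like the others. Genotype comparisons and differences in response had 0 calls under every alternative. Fitted with the compared groups alone, calls were lost for Ets1 in WT at 6 h and 24 h, for Lef1 in WT from 6 h to 24 h, and for Runx3 and Zbtb7b in transgenic cells from 6 h to 24 h. Trended and robust moderation lost Gata3 in transgenic cells, and leaving out the WT arrays marked Rep also lost Runx3 there. Using values as deposited or all rows of the table changed no call of these factors. With 2 arrays per group, standard errors of 0.08 for Ets1 to 0.25 for Gata3 limit what could be detected.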
